A study of Mus musculus with 6 samples.

Results

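Thyroid hormone acts inside cells on 2 nuclear receptors, and how much of it reaches them is set by transporters and deiodinases. The genes described here are the receptors Thra and Thrb, the deiodinases Dio1, Dio2 and Dio3, the transporter Slc16a10 and the hormone response genes Klf9, Thrsp and Hr. They were chosen by name, and every probe set that the platform annotation assigns to one of them was taken. Of the 9 genes, 8 had a probe set, and together they had 24 of the 45037 probe sets tested, in which 18193 genes were named. No probe set of the annotation used here carried the symbol Dio3, which was therefore not analysed here.

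The tissue was stria vascularis, the layered epithelium on the outer wall of the cochlear duct that makes the endocochlear potential. Its RNA was compared between adult Slc26a4+/+ mice and adult Slc26a4-/- mice, which carry no functional gene for the anion exchanger pendrin in any cell of the body. There were 3 arrays for each genotype, and RNA of 2 animals was combined for each array and amplified in 2 rounds. Mice of the study were anaesthetized with tribromoethanol or pentobarbital before they were killed, and no other treatment is named in the sources used here. Their strain is not given there, and their vessels were not flushed, so that blood within the tissue was included. The question for these genes was whether hormone handling and response in the tissue differed between mice with and without pendrin, a protein that also carries iodide in the thyroid gland. The study describes Slc26a4-/- mice as apparently euthyroid and without goiter.

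As background, the thyroid gland releases mainly thyroxine (T4), which is carried in blood by binding proteins and enters cells through membrane transporters. Inside cells Dio2 turns T4 into the active hormone triiodothyronine (T3), Dio3 inactivates both, and Dio1 can do either. T3 binds the receptors Thra and Thrb, which sit on DNA with a retinoid X receptor and exchange co-repressors for co-activators. In rodents, Thrb and Dio2 are known to be needed for the development of hearing.

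Receptors of this family bind the hexamer AGGTCA, typically as a direct repeat with a spacer of 4 bases, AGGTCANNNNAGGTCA. Both were searched on both strands of promoter windows from RefSeq (GRCm38.p6), each running from 250 bases before to 50 bases after a gene's start. The repeat holds the hexamer, so that every window with the repeat also counts for the hexamer. Windows were found for 7 of the 9 genes, 8 windows in all, because Thrb had a pair of them, and Thra and Hr were not in the table. The hexamer was in 1 of the 8 windows and in 16.3% of 32851 promoters of the same length. No window of these genes held the direct repeat, which was in 5 promoters, or 0.0152%. The window of Thrb that holds the hexamer is shown with those of Klf9 and Thrsp, which are known targets of the hormone and whose levels are described further on. Capitals mark the hexamer, which starts 184 bases before the start of Thrb, and the windows of Klf9 and Thrsp hold none. A match is a description of letters and not a binding site, and these windows are short, so that sites elsewhere were not searched.
Thrb, chr14:17660710-17661009, plus strand: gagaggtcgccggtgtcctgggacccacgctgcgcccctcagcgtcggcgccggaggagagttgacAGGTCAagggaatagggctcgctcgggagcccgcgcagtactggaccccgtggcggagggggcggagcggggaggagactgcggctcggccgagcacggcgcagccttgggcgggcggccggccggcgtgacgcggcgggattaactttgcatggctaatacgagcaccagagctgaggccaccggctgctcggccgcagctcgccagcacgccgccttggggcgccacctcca
Klf9, chr19:23140976-23141275, plus strand: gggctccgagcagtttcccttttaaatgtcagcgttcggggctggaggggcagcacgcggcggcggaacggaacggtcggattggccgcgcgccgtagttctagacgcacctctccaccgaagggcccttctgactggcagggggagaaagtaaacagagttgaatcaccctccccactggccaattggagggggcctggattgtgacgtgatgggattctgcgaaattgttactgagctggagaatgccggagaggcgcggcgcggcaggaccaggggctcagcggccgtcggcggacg
Thrsp, chr7:97417501-97417800, minus strand: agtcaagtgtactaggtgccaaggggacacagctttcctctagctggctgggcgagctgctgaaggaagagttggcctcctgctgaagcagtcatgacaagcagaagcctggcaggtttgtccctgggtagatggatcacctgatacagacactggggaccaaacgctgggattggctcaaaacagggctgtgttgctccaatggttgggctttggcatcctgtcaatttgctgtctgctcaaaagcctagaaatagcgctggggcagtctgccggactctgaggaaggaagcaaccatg
The 3 windows differed in base composition. The window of Thrb was 72.7% G and C with 37 CpG sites, that of Klf9 63.3% with 28, and that of Thrsp 54.3% with 4.

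The values are signals, 1 for each probe set and array on a linear scale that the scanner software had scaled, with mean signals of 666 to 725 over the 6 arrays. A probe set was called above background on an array when its signal exceeded that of 95% of the 44 probe sets for olfactory receptors there, a level of 187 to 319. Of the markers measured, 7 of 8 of marginal, 7 of 9 of intermediate and 5 of 5 of basal cells were above background on all arrays, whereas 5 of 6 hair cell and 4 of 5 neuronal and glial markers were below it on all. The exceptions were Bsnd, a marginal cell marker below background on 1 Slc26a4-/- array, and the pigment cell genes Tyrp1 and Pmel, below it on 3 and 2 of the Slc26a4+/+ arrays. Of 10 fibrocyte markers of the neighbouring spiral ligament, 8 were also above background on all 6 arrays. How much of the RNA on these arrays came from that tissue was not tested here. By qRT-PCR in Slc26a4+/- and Slc26a4-/- mice, the study found slight contamination between the tissues, larger in Slc26a4-/-. Slc26a4 itself had signals of 1354, 1262 and 793 in Slc26a4+/+ and of 520.2, 717 and 618.5 in Slc26a4-/-, a change of -0.85 on the log2 scale (SE 0.23, limma, adjusted p = 0.119). The sources used here do not say where its probes lie relative to the disruption. The Y-linked gene Eif2s3y was at 640 to 1541 in Slc26a4+/+ and at 3.1 to 3.6 in Slc26a4-/-, and Xist was at 771 to 3358 and at 5530 to 5863, so that genotype and the sex of the pooled animals cannot be told apart. The signal of Gapdh at its 3' end over that at its 5' end was 7.19 and 10.5 on replicates 2 and 3 of Slc26a4+/+ and 2.25 to 3.80 on the other 4 arrays. The labels do not say that the arrays of a genotype came from separate preparations, and p-values measure the spread between these arrays.

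Among the 24 probe sets none differed between the genotypes at an adjusted p under 0.05, against 1.73% of all probe sets (limma, two-sided, Benjamini-Hochberg over all 45037). Their adjusted p-values ran from 0.222 to 0.996. At an unadjusted p under 0.05 there was 1 probe set, of Thra, against 11.9% of all. The signals of the genotypes did not overlap in 2 probe sets, 1 of Thra and 1 of Klf9, against 17.9% of all. The log2 fold change of Slc26a4-/- over Slc26a4+/+ was positive in 14 probe sets and negative in 10, with a median of 0.02 beside -0.06 over all probe sets. In whole-tissue RNA, fewer cells of a type and less RNA per cell cannot be told apart.

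How much these values can show depends on how bright a probe set is. Of the 24, 15 probe sets of 6 genes were above background on at least 2 arrays of a genotype, and 8 probe sets of Thra, Slc16a10, Klf9 and Thrsp were above it on all 6 arrays. In 7 of those 8 the 95% interval of the log2 fold change lay within 1 of 0, which is a change of less than 2-fold in either direction. A further 7 probe sets, of Dio1, Dio2, Slc16a10, Klf9 and Thrsp, were below background on all arrays, and their values set no limit on a change below background. Of these genes, Slc16a10, Klf9 and Thrsp also had probe sets above background on all 6 arrays.

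Thra, which encodes a hormone-binding receptor and, by alternative splicing, a form that does not bind the hormone, had 3 probe sets. The sources used here do not say which form each of them detects. The brightest probe set, 1454675_at, had signals of 2443, 3652 and 3383 in Slc26a4+/+ and of 2737.5, 2751 and 2964 in Slc26a4-/-. The arrays without pendrin thus lay within the range of the others, with means of 3159 ± 635 and 2817 ± 127 (SD, n = 3 each). The log2 fold change was -0.15 (95% interval -0.52 to 0.23, adjusted p = 0.802, limma).

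The other two probe sets of Thra had lower signals in Slc26a4-/-. Probe set 1426997_at was at 360.2, 427 and 630.2 in Slc26a4+/+ and at 356, 328 and 289 in Slc26a4-/-. The groups did not overlap, but the gap between 360.2 and 356 was far smaller than the spread within either genotype, and on the log2 scale the change was -0.51 (SE 0.24, interval -1.05 to 0.03, adjusted p = 0.458, limma). Probe set 1443952_at was at 319, 592 and 496 in Slc26a4+/+ and at 334, 219.5 and 154 in Slc26a4-/-. Here replicate 1 of Slc26a4-/- lay above the lowest Slc26a4+/+ array, and replicate 3 of Slc26a4-/- was below background. Its log2 fold change of -1.02 (SE 0.33, interval -1.76 to -0.28) had an unadjusted p of 0.0119 and an adjusted p of 0.222 (limma).

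This was also the one value whose call depended on the fit. With array weights, which gave replicate 2 of Slc26a4+/+ a weight of 2.81 and the other Slc26a4+/+ arrays 0.372 and 0.316, the log2 fold change of 1443952_at was -1.37 with an adjusted p of 0.015. That fit called 9.07% of all probe sets and 1 of these 24. Over all alternatives the adjusted p of 1443952_at ran from 0.015 to 0.704. The 3 probe sets of Thra had negative values in the fit reported here, but that of the brightest was 0.0015 with the Gapdh ratio as a covariate.

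Thrb, the receptor known to be needed for hearing in mice, had 1 probe set, 1422202_at, close to background. In Slc26a4+/+ its signals were 181, 208.5 and 261, against 226, 198 and 206 in Slc26a4-/-. Replicate 1 of Slc26a4-/- was the only array above background. The groups overlapped, with a log2 fold change of -0.03 (SE 0.26, interval -0.61 to 0.55, adjusted p = 0.977, limma). Thrb was thus at the limit of what these arrays detect.

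**Figure D1:**
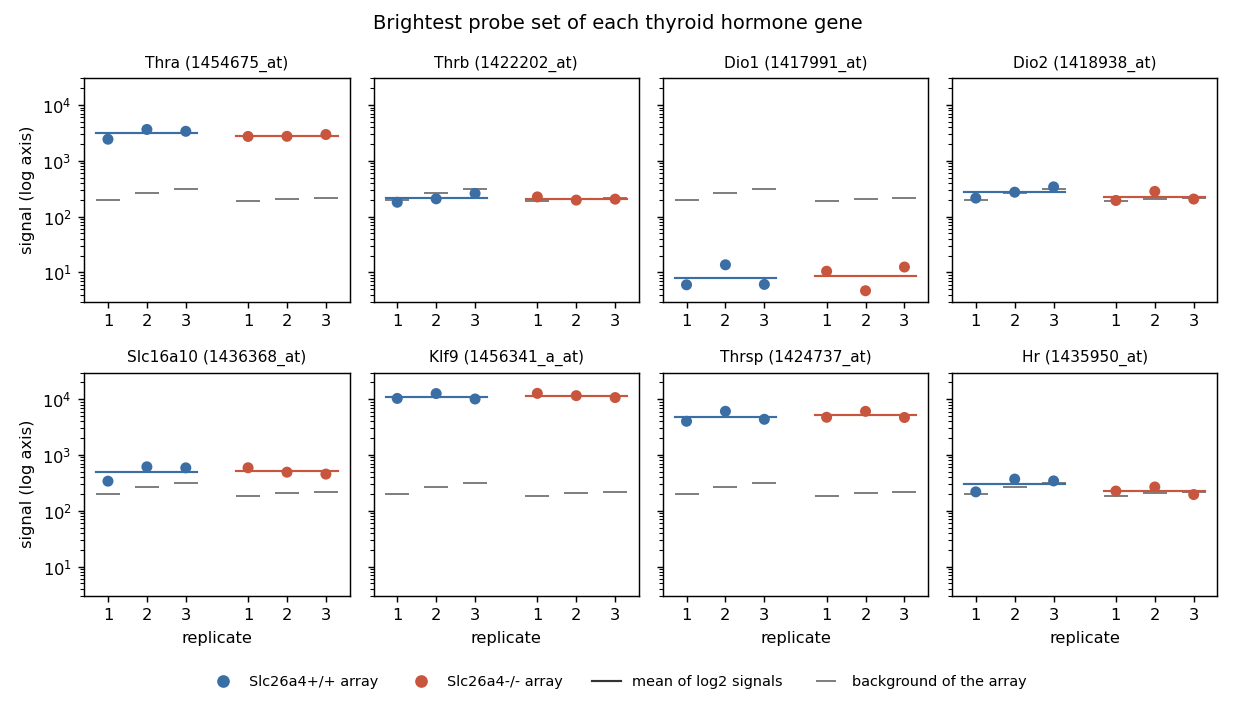
Signal (log axis) of the brightest probe set of each of the 8 genes on the 6 arrays, by replicate number. Points are arrays, long lines the mean of the log2 signals of a genotype, and short grey lines the background of each array. Thra, Slc16a10, Klf9 and Thrsp lie above background on all 6 arrays, Thrb, Dio2 and Hr close to it, and Dio1 far below it, and the genotypes overlap in every panel.

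The deiodinases were dim. Dio1, an enzyme best known from liver, kidney and thyroid, had signals of 4.7 to 13.7 on the 6 arrays with probe set 1417991_at, below background on every one. Its log2 fold change of 0.10 had an interval from -1.44 to 1.64 and carries no information on a change below background.

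Dio2, which makes T3 within tissues and is known from the developing cochlea, had 3 probe sets. The brightest, 1418938_at, was above background on 5 arrays, at 215, 274 and 342 in Slc26a4+/+ and at 195, 283.5 and 207 in Slc26a4-/-. Replicate 3 of Slc26a4+/+ was the highest array here and also the one with the highest background. The genotypes overlapped, with means of 277 ± 63.3 and 228 ± 48.1 (SD, n = 3 each) and a change of -0.27 on the log2 scale (95% interval -0.88 to 0.34, limma, adjusted p = 0.767). Probe set 1426081_a_at was above background on 1 array and gave 0.02 (SE 0.41), and 1418937_at was above it on none and gave 0.36 (SE 0.43). The 3 probe sets of Dio2 did not share a sign, and none passed the test.

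Slc16a10 encodes the monocarboxylate transporter MCT10, also called TAT1, which carries aromatic amino acids and thyroid hormones across the cell membrane. Of its 4 probe sets, 1436368_at was above background on all arrays. It had signals of 339, 612 and 587 in Slc26a4+/+ and of 589, 491 and 453.5 in Slc26a4-/-. Replicate 1 of Slc26a4+/+ was the lowest array, the other 5 lay close together, and the means of 513 ± 151 and 511 ± 70.0 (SD, n = 3 each) were nearly equal. The log2 fold change was 0.04 (SE 0.25, interval -0.52 to 0.59, adjusted p = 0.975, limma).

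The other probe sets of Slc16a10 had higher mean signals in Slc26a4-/-, but at or below background. Probe set 1434592_at passed background on 2 Slc26a4-/- arrays only and gave 0.28 (SE 0.32, adjusted p = 0.802, limma). Probe sets 1440569_at and 1453675_at never passed it. Their signals were 16.5 to 52.6 against 44.7 to 94.4 and 11.6 to 19.9 against 12.5 to 55.6, with log2 fold changes of 1.02 (SE 0.63) and 1.11 (SE 0.73) and adjusted p-values of 0.591 and 0.616 (limma). In both the genotypes overlapped.

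Klf9, a zinc finger transcription factor that T3 and glucocorticoids induce in many tissues, had 7 probe sets. Among these, 1456341_a_at, 1428289_at and 1428288_at were far above background on all arrays. The first was at 10303, 12592 and 10063 in Slc26a4+/+ and at 12688, 11547 and 10671 in Slc26a4-/-. The genotypes overlapped fully, with means of 10986 ± 1396 and 11635 ± 1011 (SD, n = 3 each) and a change of 0.09 on the log2 scale (95% interval -0.25 to 0.42, limma, adjusted p = 0.873). Probe set 1428289_at was at 5717, 7770.5 and 6533 against 7549, 6976 and 5240.1, and 1428288_at at 6401, 6777 and 5272 against 6121.5, 6273 and 6211. These gave -0.02 (interval -0.42 to 0.37) and 0.02 (interval -0.29 to 0.33), so that all 3 estimates for Klf9 lay within 0.1 of 0 on the log2 scale.

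The dimmer probe sets of Klf9 went apart. Probe set 1436763_a_at, above background on 5 arrays, was at 437, 357 and 166 against 440.0, 402.5 and 377, which is 0.46 higher on the log2 scale (SE 0.33, limma, adjusted p = 0.66), and replicate 3 of Slc26a4+/+ was the low array. In contrast, 1436952_at was below background on all arrays, at 86.3, 80.8 and 178 against 53.6, 43.5 and 67.0. Its genotypes did not overlap, and the log2 fold change was -0.996 (SE 0.48, interval -2.07 to 0.07, adjusted p = 0.463, limma). The remaining probe sets, 1422264_s_at and 1452723_at, gave -0.21 and -0.40 with adjusted p-values of 0.857 and 0.74.

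Thrsp, also called Spot 14, is a small nuclear protein of lipid synthesis whose transcript T3 raises in rat and mouse liver. With probe set 1424737_at it was at 4010.5, 6060.0 and 4354 in Slc26a4+/+ and at 4732, 6041 and 4691 in Slc26a4-/-. Replicate 2 was the highest array of each genotype at nearly the same signal, and the others lay between 4010.5 and 4732. The means were 4808 ± 1098 and 5154 ± 768 (SD, n = 3 each), with a log2 fold change of 0.11 (SE 0.18, interval -0.30 to 0.52, adjusted p = 0.863, limma). Probe set 1422973_a_at was at 551, 465 and 456 against 496, 589 and 557 and gave 0.16 (SE 0.18, interval -0.23 to 0.55, adjusted p = 0.793, limma). The third, 1444166_at, was at 20.4 to 30.7 on all arrays, below background.

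Hr, the co-repressor Hairless and a T3 target in the developing rodent brain, had a pair of probe sets that disagreed. Probe set 1435950_at was at 218, 369 and 342 in Slc26a4+/+ and at 225, 267 and 195 in Slc26a4-/-, with a change of -0.41 on the log2 scale (SE 0.27, interval -1.02 to 0.20, adjusted p = 0.627, limma). In 1422110_at the order was the opposite, with 69.9, 114 and 210.3 against 225, 228 and 167. On the log2 scale it was 0.78 higher (SE 0.42, interval -0.15 to 1.71, adjusted p = 0.516, limma), and only Slc26a4-/- arrays, 2 of 3, were above background. The genotypes overlapped in both probe sets, and no direction can be given for Hr.

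**Figure D2:**
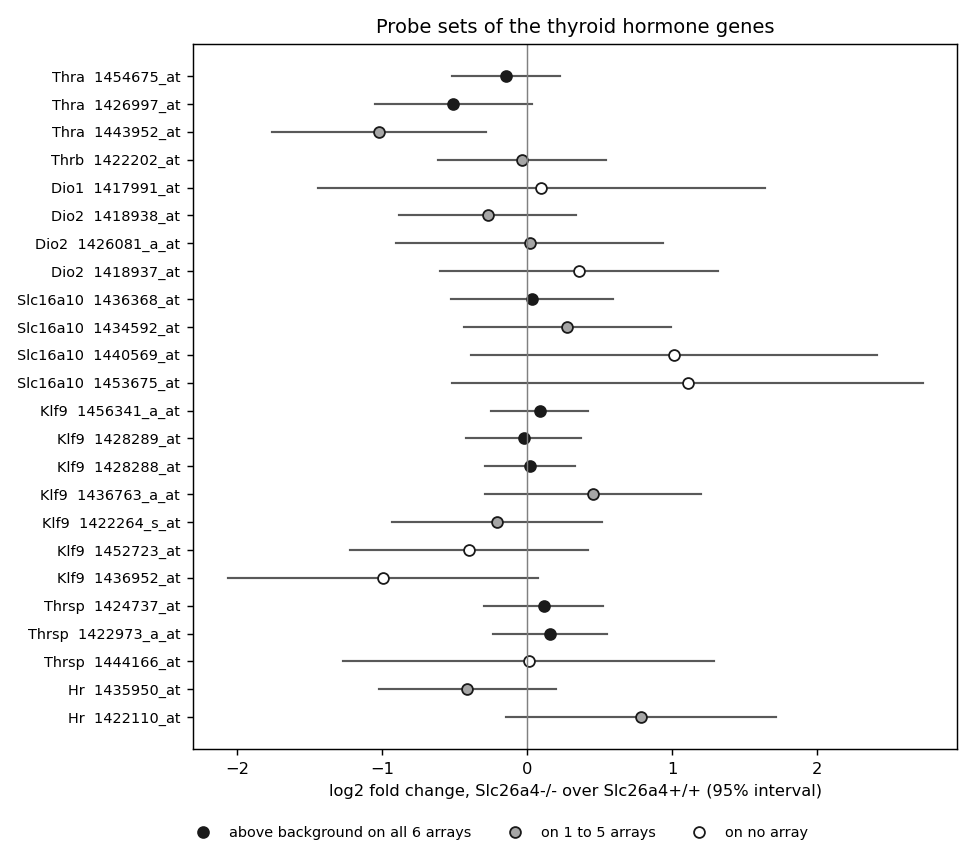
Log2 fold change of Slc26a4-/- over Slc26a4+/+ (points) with its 95% interval (lines) for the 24 probe sets, shaded by the number of arrays above background. The 8 probe sets above background on all 6 arrays have the narrowest intervals, 7 of them within 1 of 0, and only the interval of Thra 1443952_at leaves out 0.

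By gene rather than by probe set, each gene was represented by its brightest probe set, and 0 of 8 genes passed. The gene with the smallest unadjusted p was then Hr, at 0.165. Over the 6 arrays the genes whose log2 signal ran most like that of Hr 1435950_at, among 16728 named probe sets above background on at least 3 arrays, were Paics, Ankrd54, Tsr3, Ak1 and Pex10, with Pearson r from 0.992 to 0.997. These are descriptions over 6 arrays that share scaling and background, and none of the 5 genes passed the test between genotypes (adjusted p 0.479 to 0.646, limma).

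The study's methods average a gene's ratios of mean signals over its probe sets and call a change past 1.3, but only for genes called Present in enough of their probe sets. That condition was left out here, since calls per array were not used, so the counts rest on the ratio alone and are not those of the full rule. By the ratio, 2 of the 8 genes were past 1.3. Thra had an averaged ratio of 0.694 and Slc16a10 of 1.66. The ratio alone took in 37.7% of all 18193 genes, and the ratio of Slc16a10 came largely from the probe sets 1440569_at and 1453675_at, which were below background on every array. By the methods' paired t-test, with arrays paired by replicate number, 2 probe sets had an unadjusted p under 0.05, both of Klf9 and both below background on all arrays, against 8.84% of all, and none passed after Benjamini-Hochberg adjustment.

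The wider pathway was described by 5 lists with 68 genes, of which 60 had a probe set. There, 3 genes rose in Slc26a4-/- and 0 fell (limma, with 6 higher and 4 lower at an unadjusted p under 0.05, against 11.9% of all probe sets), against 1.19% of all probe sets that rose and 0.54% that fell. All 3 belong to the list of other transporters and binding proteins, which had 12 of 14 genes measured and a median log2 fold change of 0.52. They were Ttr, Slc7a5 and Slc3a2.

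Ttr encodes transthyretin, a carrier of T4 and of retinol-binding protein that is made mainly by liver and choroid plexus. With probe set 1454608_x_at it was at 339, 425 and 599 in Slc26a4+/+ and at 4543, 4996 and 4576 in Slc26a4-/-. Every array without pendrin was thus several times brighter than every other array, with means of 454 ± 132 and 4705 ± 253 (SD, n = 3 each). The log2 fold change was 3.41 (SE 0.20, adjusted p = 4.3e-05, limma), or 10.6-fold. The suffix _x_at marks probe sets with probes that may match other transcripts, and _s_at those shared by several transcripts.

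The other 3 probe sets of Ttr moved the same way. Probe set 1451580_a_at, which carries neither suffix, was at 13.1, 12.3 and 25.2 in Slc26a4+/+, below background, and at 948, 816 and 906 in Slc26a4-/-. Since only a bound exists on the dim side, the change was at least 3.44-fold, taking the background of each array as the floor. The limma fit, made without that floor, gave an adjusted p of 0.000104. For 1455913_x_at, with 186 to 268 against 3122 to 3284, it was at least 12.4-fold, and 1459737_s_at, above background on 1 of 3 Slc26a4+/+ arrays, had a log2 fold change of 3.69 (SE 0.18). Albumin (Alb), the other abundant plasma carrier of T4, was below background on all 6 arrays, and so was Serpina7, the T4-binding globulin.

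Slc7a5 and Slc3a2 encode the light and heavy chains of the amino acid transporter LAT1, which also carries thyroid hormones. Slc7a5 was at 532, 673.5 and 561 in Slc26a4+/+ and at 2202, 1820 and 2020.4 in Slc26a4-/-. It rose by 1.78 on the log2 scale (SE 0.16, limma, adjusted p = 0.000483), or 3.43-fold, and the genotypes were far apart. Slc3a2 was at 3807, 3600 and 3442 against 5634.5, 6314 and 6199, again without overlap. Its change was smaller, 0.74 (SE 0.13, adjusted p = 0.0188, limma), or 1.67-fold.

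These 3 calls did not hold equally. Ttr passed in 16 of 17 alternatives, all but the methods' paired t-test, and Slc7a5 in 15, all but that test and the fit with Xist as a covariate (adjusted p = 0.189). Slc3a2 passed in 9. It was lost with that test, with arrays centred on their median (0.0927), without the trend (0.249), with Xist as a covariate (0.487), and when replicate 2 of Slc26a4+/+ or any 1 of the Slc26a4-/- arrays was left out, with adjusted p-values of 0.0846 to 0.156, while its log2 fold change stayed at 0.70 or above. In the same arrays 6 of 10 macrophage markers rose, and 9 were higher at an unadjusted p under 0.05 (limma). In either direction 11.9% of all probe sets had such a p. The summed macrophage signals were 7329 to 9697 in Slc26a4+/+ and 35660.4 to 37509 in Slc26a4-/-. The scavenger receptor Cd163 was below background on all arrays. Of 10 fibrocyte markers of the neighbouring spiral ligament 5 rose, and 6 were higher at an unadjusted p under 0.05. Their summed signals were 21760.4 to 25121.5 against 30808 to 32854.5. Of 8 marginal cell markers 2 fell, 7 were lower at an unadjusted p under 0.05, and all 8 had a negative log2 fold change. Their sums were 60952 to 76526 against 44108 to 47162. Of 9 markers of intermediate cells and melanocytes 2 rose, Tyrp1 (mean signals 46.2 and 1486, below background in Slc26a4+/+) and Pmel (212 and 648). At an unadjusted p under 0.05, 4 of the 9 were higher, and the sums of 63446 to 76788 against 70669.6 to 72643 overlapped. The basal cell marker Nrp2 rose (3375 and 5259), 1 of 5, and the sums of that list, 38725 to 44463 against 39477 to 41654.5, overlapped. None of 8 endothelial and pericyte markers passed, 3 were higher at an unadjusted p under 0.05, and their sums were 5067.5 to 8436 against 8704 to 10509, without overlap. The part of these cell types in the changes of Ttr, Slc7a5 and Slc3a2 was not tested.

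**Figure D3:**
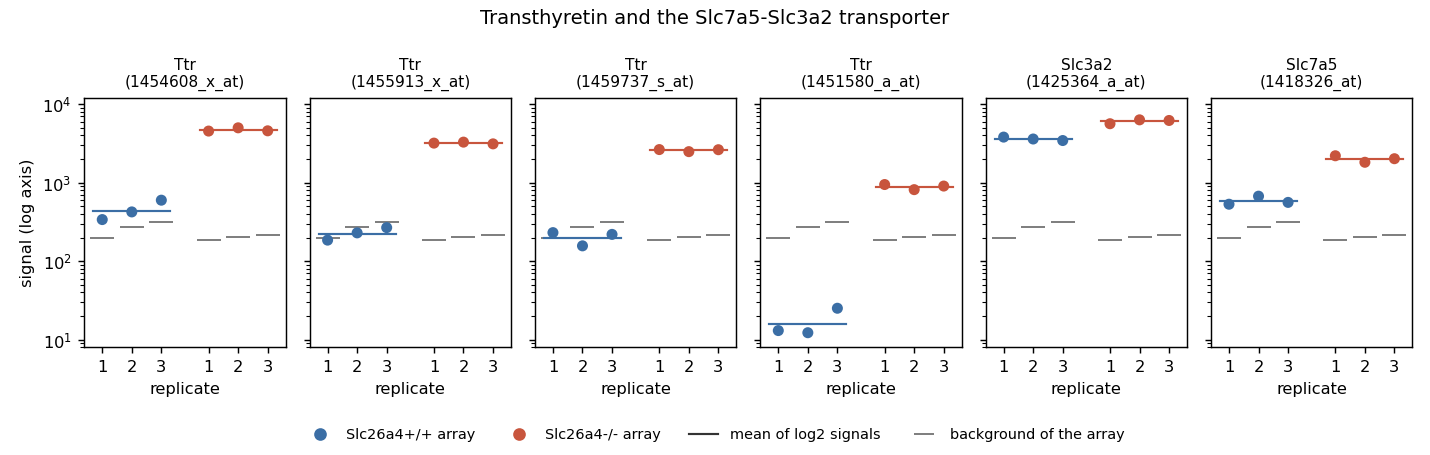
Signal (log axis) of the 4 probe sets of Ttr, of Slc3a2 and of Slc7a5 on the 6 arrays, by replicate number, with points for arrays, long lines for the mean of the log2 signals of a genotype and short grey lines for the background of each array. In all 6 panels every Slc26a4-/- array lies above every Slc26a4+/+ array, and 1451580_a_at and 1455913_x_at of Ttr are below background on the Slc26a4+/+ arrays.

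No gene of the other 4 lists passed the test. Among the retinoid X receptors and the co-regulators of the hormone receptors, 16 of 18 genes were measured with a median log2 fold change of 0.05. The smallest p-values were those of the co-activator Ncoa1 (log2 fold change -0.41, adjusted p = 0.319), of Tbl1xr1, a subunit of the co-repressor complex (0.38, adjusted p = 0.42), and of the acetyltransferase Crebbp (0.23, adjusted p = 0.7). For Ncoa1 the genotypes did not overlap, with 1366 to 1507 in Slc26a4+/+ and 940.5 to 1262 in Slc26a4-/-.

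The deiodinases are selenoproteins, and of the genes that make such proteins 6 of 7 were measured, with a median of -0.23. Sephs2, which makes the selenium donor, gave -0.46 (adjusted p = 0.513), the kinase Pstk -0.37 (adjusted p = 0.53) and Secisbp2, which binds the selenocysteine insertion element, 0.36 (adjusted p = 0.666). Of the 11 measured genes of iodide handling and hormone synthesis in the thyroid gland, 9 were below background on all arrays. Among these were the 3 with the smallest p-values, Duoxa2 (-0.67, adjusted p = 0.494), Tshr (-0.62, adjusted p = 0.538) and thyroglobulin (Tg, 0.82, adjusted p = 0.608), so that these values show no change in the tissue beyond background.

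Of 15 other genes known to respond to the hormone, mainly in liver, heart and brain, 2 had a higher and 2 a lower level at an unadjusted p under 0.05, against 11.9% of all probe sets in either direction, and the median was 0.04. Me1, malic enzyme, was at 2162, 2811 and 3494 in Slc26a4+/+ and at 1749.5, 1766 and 1259 in Slc26a4-/-, without overlap, a log2 difference of -0.82 (SE 0.20, limma, adjusted p = 0.0965). Scd1, a fatty acid desaturase, was at 8922, 6289 and 4506 against 10675, 10164 and 10411, with 0.72 (SE 0.22, adjusted p = 0.187, limma). Gpd2, the mitochondrial glycerophosphate dehydrogenase, was at 2262 to 3081 against 3221 to 4212, with 0.49 (SE 0.17, adjusted p = 0.268, limma). Thus the estimate was negative for Me1 and positive for Scd1 and Gpd2, and none passed. As background, T3 is known to raise Me1 and Gpd2 in rat liver. Without replicate 1 of Slc26a4+/+, Me1 and Scd1 passed with adjusted p-values of 0.0258 and 0.0141.

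**Figure D4:**
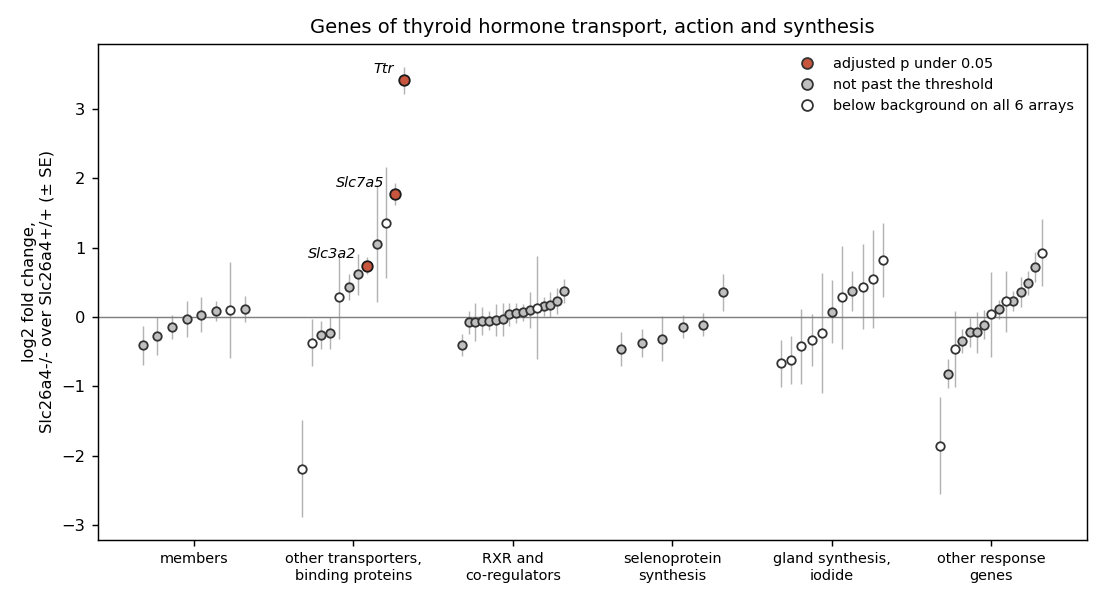
Log2 fold change of Slc26a4-/- over Slc26a4+/+ (points, ± SE) for the 8 genes and the 5 lists of related genes, each by its brightest probe set and ordered by size within a list. Ttr at 3.41, Slc7a5 at 1.78 and Slc3a2 at 0.74 are the only points past the threshold, and open points were below background on all 6 arrays.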

How the data were processed

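The 6 arrays were assigned to Slc26a4+/+ and Slc26a4-/- by the sample titles. The authors deposited GCOS signals, linear intensity values with 1 per probe set on each array; the sources used here give neither the version nor the scaling target. Of 45101 probe sets, 64 controls were left out. The platform annotation gave a single symbol to 34945 of the others, several to 932, left unnamed here, and none to 9160. After raising 172 signals to a floor of 1, limma 3.58.1 in R 4.3.3 (lmFit, eBayes with a trend) compared log2 signals as deposited, with two-sided p-values, Benjamini-Hochberg adjustment over all 45037 probe sets and a threshold of 0.05. The number of arrays limits the precision. Same-numbered arrays were not treated as pairs, since the labels name no shared source. The genes, lists and tests were chosen with earlier results of these data known. All probe sets of the 9 genes are named, with Slc26a4, the 3 smallest p-values of each pathway list and the 5 genes most like the one with the smallest p. Alb, Serpina7, Cd163, Eif2s3y, Xist, Gapdh, Dio3os, Aqp1, Otx2, Kl, Kcnj13, Bsnd, Tyrp1, Pmel and Nrp2 were named after their values were seen. Alternatives were another scaling, pseudocount or filter, no trend, array weights, a replicate block, covariates, a paired t-test by replicate number and omitted arrays.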

Additional observations from a re-analysis of the deposited data

How the results depend on the processing

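Of the 24 probe sets 0 passed under every alternative but array weights, which passed 1 (Thra 1443952_at), and 0 of the 8 genes passed under any, the mean over the probe sets of a gene included. Pathway genes passing numbered 3 in the reported fit, 13 with array weights, 0 with the paired t-test, 1 with the Xist covariate and 2 to 5 with 1 array left out, the 5 without replicate 1 of Slc26a4+/+. For transporters and binding proteins these counts were 5, 0, 1 and 2 to 3. Array weights passed 1 co-regulator, 2 genes of selenoprotein synthesis and 5 response genes, and leaving out an array passed 0 to 2 response genes. The replicate block, with correlations of 0.03 to 0.09 between same-numbered arrays, left 0 probe sets and 3 pathway genes and raised the count over all probe sets from 778 to 832. That count was 448 with arrays centred on their median, 114 without the trend, 4084 with array weights and 0 with the paired t-test. It was 27 with the Xist covariate and 219 to 1714 with 1 array left out, replicate 1 of Slc26a4+/+ giving the 1714. Without both Slc26a4+/+ arrays with a high Gapdh ratio, an alternative chosen after seeing the data, 0 and 3 passed. The cause of these differences was not tested.

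Signs turned only in values that passed under no alternative. With the Gapdh ratio as a covariate the log2 fold change was 0.0015 for Thra 1454675_at, 0.10 for Thrb, 0.066 for Klf9 1428289_at and -0.032 for Klf9 1428288_at. Centring gave 0.048 for Thrb and 0.056 for Klf9 1428289_at, and quantile normalization 0.019, 0.057 and, for Slc16a10 1436368_at, -0.0032. A pseudocount of 64 gave -0.0020 for Dio2 1426081_a_at. Array weights and the Xist covariate gave -0.43 and -1.16 for Dio1, -0.18 and -0.52 for Dio2 1426081_a_at, -0.20 and -0.56 for Slc16a10 1436368_at, -0.078 and -0.22 for Klf9 1456341_a_at, -0.085 and -0.16 for Klf9 1428288_at, -0.14 and -0.44 for Thrsp 1424737_at, -0.050 and -0.097 for Thrsp 1444166_at, and -0.016 and -0.19 for Crebbp. With 1 array left out, values ran from -0.15 to 0.11 for Thrb, -0.18 to 0.53 for Dio1, -0.35 to 0.28 for Dio2 1426081_a_at, -0.24 to 0.19 for Slc16a10 1436368_at, -0.13 to 0.13 for Klf9 1428289_at, -0.087 to 0.094 for Klf9 1428288_at, -0.38 to 0.057 for Klf9 1422264_s_at, -0.0058 to 0.29 for Thrsp 1424737_at and -0.18 to 0.12 for Thrsp 1444166_at. Of the probe sets, 15 were above background on at least 2 arrays of a genotype at the 95th percentile, 16 at the 90th and 11 at the 99th. For the 7 dim probe sets a change below background was not detectable.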

Other observations

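Dio3os, the transcript from the opposite strand of the Dio3 locus, has a probe set of its own, 1435121_at, and is not a measure of Dio3. Its signals were 179.7, 299 and 480.1 in Slc26a4+/+ and 69.6, 284 and 229 in Slc26a4-/-, with overlap, a log2 fold change of -0.84 (SE 0.53) and an adjusted p of 0.605 (limma).

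Because Ttr rose, markers of the tissues in which it is best known were listed after its values had been seen. Of 8 choroid plexus markers 1 rose, the water channel Aqp1 (limma, adjusted p = 0.00663). It was below background on all Slc26a4+/+ arrays (23.0, 75.8 and 58.5) and reached 789, 333.5 and 743 without pendrin. With the background of each array as the floor, the rise was at least 2.25-fold. At an unadjusted p under 0.05, 2 of the 8 were higher, Aqp1 and Otx2, and 1 was lower, Kl. Otx2 had 19.6 to 86.2 in Slc26a4+/+, below background, and 171 to 309 in Slc26a4-/-, above background on 1 array. Its log2 fold change was 2.15 (limma, adjusted p = 0.122). Kl had 253 to 292.5 in Slc26a4+/+ and 17.9 to 111 in Slc26a4-/-, below background there on all 3 arrays (limma, adjusted p = 0.0689). The summed signals of the choroid plexus list were 4744 to 6085 in Slc26a4+/+ and 5240.2 to 6065.5 in Slc26a4-/-. Most of each sum came from Kcnj13, with mean signals of 4189 in Slc26a4+/+ and 4209 in Slc26a4-/-. The sums therefore say little of the other genes. Of 4 retinal pigment epithelium markers and 5 liver markers 0 passed in either direction by limma, with 1 and 0 at an unadjusted p under 0.05, and 3 and 4 of them were below background on all 6 arrays. Over all probe sets 1.73% passed and 11.9% had an unadjusted p under 0.05, in either direction. Lists this short cannot be told from those shares by such counts, and the source of Ttr was not tested.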
